A study of Mus musculus with 12 samples.

Results

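The macrophage markers are 10 genes of islet RNA, Csf1r, Cd68, Adgre1 (listed as Emr1 in the annotation), Lyz2, Aif1, Mrc1, C1qa, C1qb, Cd74 and H2-Ab1, chosen by name and matched through their Ensembl identifiers among the 37991 genes of the count table. All 10 were found, and all 10 passed the filter on low counts that left 15961 genes for testing. Islets came from male C57BL/6 mice of 2 genotypes, Tg7 animals that overexpress the microRNA miR-7a2 in β-cells and wild-type (Wt) littermates, at 2 weeks (2w) and 12 weeks (12w) of age. The labels name no other treatment. There were 3 libraries for each of the 4 groups, every library made from islets pooled from several animals, so that a p value measures the spread between pools. Whole islets were sequenced, so β-cells, which carry the transgene, and leukocytes were measured together.

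Macrophages are resident leukocytes of the islet that take up debris and present antigen, and they lie mostly along the islet vessels. Their survival depends on signalling through the receptor CSF1R, which is activated by the growth factors CSF1 and IL-34, and the transcription factor PU.1 (gene Spi1) drives much of the myeloid gene programme, Csf1r included. They are a main source of the complement component C1q, and they can carry MHC class II molecules, whose loading depends on the invariant chain CD74.

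Total counts lay between 11610697 and 17515758 per library, and levels are given as CPM, the counts relative to library size after scaling by TMM factors. Fold changes are on the log2 scale, with the standard error (SE) and the adjusted p of edgeR's quasi-likelihood test across all genes, and a gene is said to have risen or fallen when that adjusted p was below 0.05. The insulin genes Ins1 and Ins2 took 10.1% to 29.99% of all counts in Wt and 1.84% to 8.24% in Tg7 libraries, so the scaling matters. With library size as the only scaling, the median difference of all genes between Tg7 and Wt at 12w moved from -0.01 to 0.43. The locus of the endogenous miR-7a2 hairpin held 0 to 13 counts per library, which does not check the genotype labels. Of the 10 β-cell genes examined, 9 fell at 2w and 8 at 12w in Tg7 islets, where 4.55% and 11.2% of all tested genes were called lower. These β-cell genes were led by Mafa, Ucn3 and G6pc2 at 2w and by Mafa, Ucn3 and Ins1 at 12w.

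The first Tg7 library at 2w stood apart in leukocyte genes, and the markers' calls at 2w are given with and without it. In that library 14 of 15 T and NK lymphocyte genes and 11 of 13 B lymphocyte genes had their highest level of all 12 libraries. Of all tested genes 8.95% were highest there, and 4 and 6 genes of these lists passed the filter on low counts. Ptprc, the leukocyte antigen CD45, reached 22.4 CPM there against 0.532 to 2.48 CPM elsewhere. Ccr7, a receptor of migrating dendritic cells and lymphocytes, reached 23.7 CPM there and did not exceed 1.72 CPM in the other libraries. Of the macrophage markers, only Lyz2 had its highest level in that library, 1 of 10 and near the share of all tested genes.

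**Figure D1:**
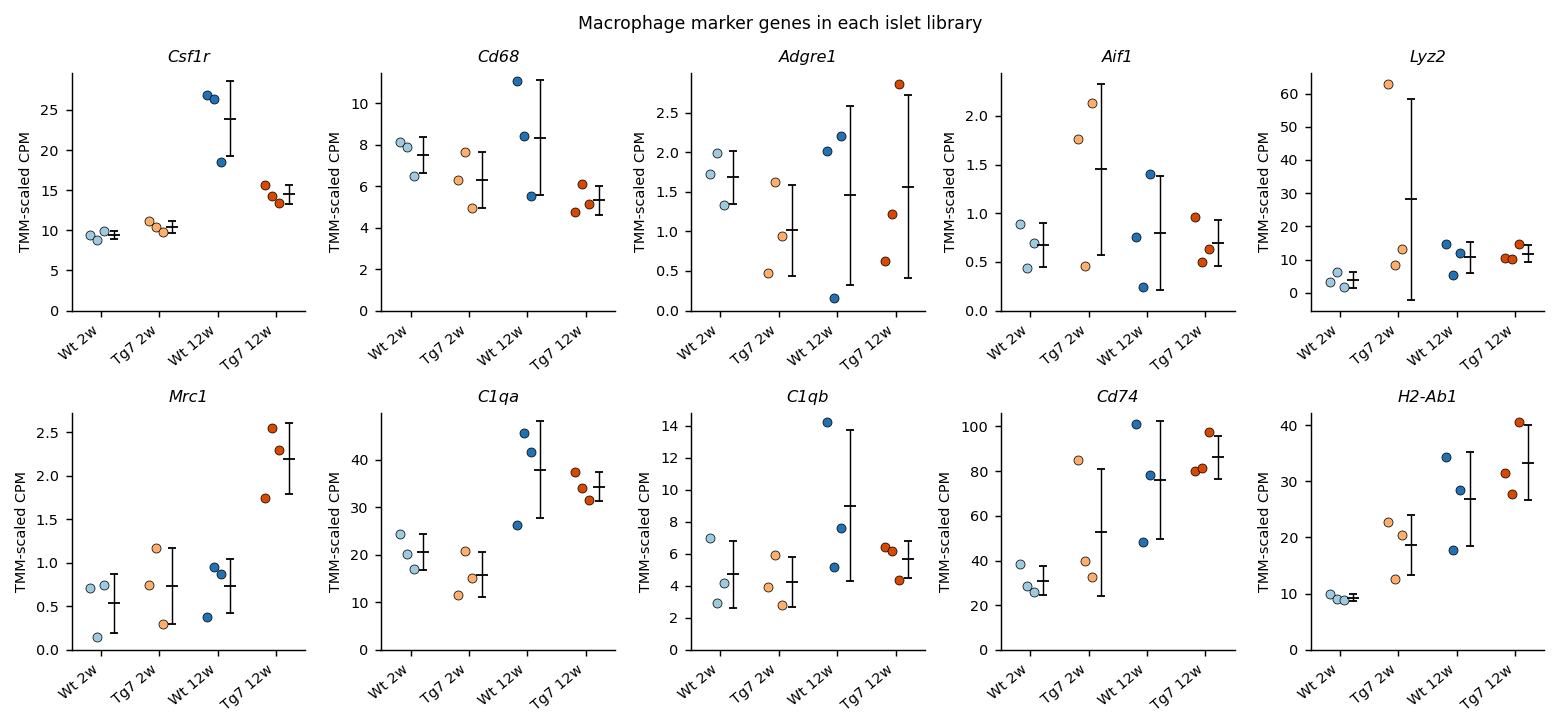
TMM-scaled CPM of the 10 macrophage markers in the 12 islet libraries, as points, with the mean and SD of each group of 3 beside them. Csf1r separated the Wt 12w group (18.5 to 26.8 CPM) from the Tg7 12w group (13.4 to 15.7 CPM), and Lyz2 reached 62.9 CPM in the first Tg7 library at 2w.

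Every marker had counts in all 12 libraries, but at unequal depth. Cd74 held 389 to 1701 counts per library and C1qa 209 to 666, whereas Adgre1 held 2 to 50, Aif1 3 to 43 and Mrc1 2 to 46. The summed counts of the markers therefore came mainly from Cd74, C1qa, H2-Ab1 and Csf1r, and the defining surface marker F4/80 (Adgre1) was near the limit of detection. Which cells the RNA of Cd74 and H2-Ab1 came from was not tested. In a tissue sample, fewer cells of a type cannot be told apart from less RNA per cell.

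Per kilobase of exon, Cd74 and C1qa were the most abundant markers in Wt islets at 2w, at 22.0 ± 4.70 and 19.8 ± 3.60 CPM per kb (SD, n = 3), values that lay within each other's spread. Cd68 (5.97 ± 0.702), H2-Ab1 (5.65 ± 0.396), C1qb (4.34 ± 1.91) and Lyz2 (2.96 ± 1.76) followed, with neighbours in this order not separated by more than their spread. Csf1r stood at 1.80 ± 0.101 CPM per kb. Adgre1 (0.518 ± 0.102) and Aif1 (0.440 ± 0.147) were close to each other, and Mrc1 was lowest at 0.0899 ± 0.0565 CPM per kb. In Tg7 islets at 12w Cd74 (61.1 ± 6.84) and C1qa (33.0 ± 2.91) again led, ahead of H2-Ab1 (20.2 ± 4.03).

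The markers did not move as a single block. Over the 12 libraries, which share scaling and groups, the 45 pairs of markers had a median Pearson correlation of log2 CPM of 0.169, and 15 pairs were below 0. The closest pair was Cd74 and H2-Ab1 (0.907), which work in the same antigen presentation pathway. The most opposed pair was Cd68 and Aif1 (-0.487). With the mean of each group removed, the median was 0.04. The closest pair was then Lyz2 and Cd74 (0.810), and the most opposed C1qa and H2-Ab1 (-0.720). The tested genes whose levels followed the mean of the standardised markers most closely were Epb4.1l4b (0.943), A330076H08Rik (0.938), Snx10 (0.935), Tlr3 (0.935) and Ccng1 (0.930), followed by Trim2 (0.923), Fbxo8 (0.918), Tmco1 (0.916) and Asnsd1 (0.906). Of these, only Tlr3 was in a leukocyte list used here.

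At 2w, Lyz2 and H2-Ab1 rose in Tg7 islets and the other 8 markers did not pass the test, where 10.6% of all tested genes were called (6.07% higher and 4.55% lower). The markers' median difference was 0.28 on the log2 scale, against 0.03 for all tested genes. It rested on single libraries, being 0.16, 0.04 and 0.45 without the first, the second or the third Tg7 library and 0.43, 0.05 and 0.41 without the first, the second or the third Wt library. The groups did not overlap for 2 of 10 markers, again Lyz2 and H2-Ab1, against 35.9% of all genes (17.8% higher and 18.1% lower). Without the first Tg7 library neither call held (adjusted p = 0.0538 for Lyz2 and 0.0673 for H2-Ab1), with 10.4% of genes called.

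At 12w, Csf1r fell in Tg7 islets and no other marker was called, against 23.6% of all tested genes (12.5% higher and 11.2% lower). The median difference of the markers was -0.02, against -0.01 for all genes, and it ran from -0.30 without the second Wt library to 0.25 without the fourth. The groups did not overlap for Csf1r, which was lower, and Mrc1, which was higher, 2 of 10 against 37.1% of all genes (20.7% higher and 16.3% lower). With library size alone the call on Csf1r was lost, and Mrc1 and H2-Ab1 were called as higher instead.

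**Figure D2:**
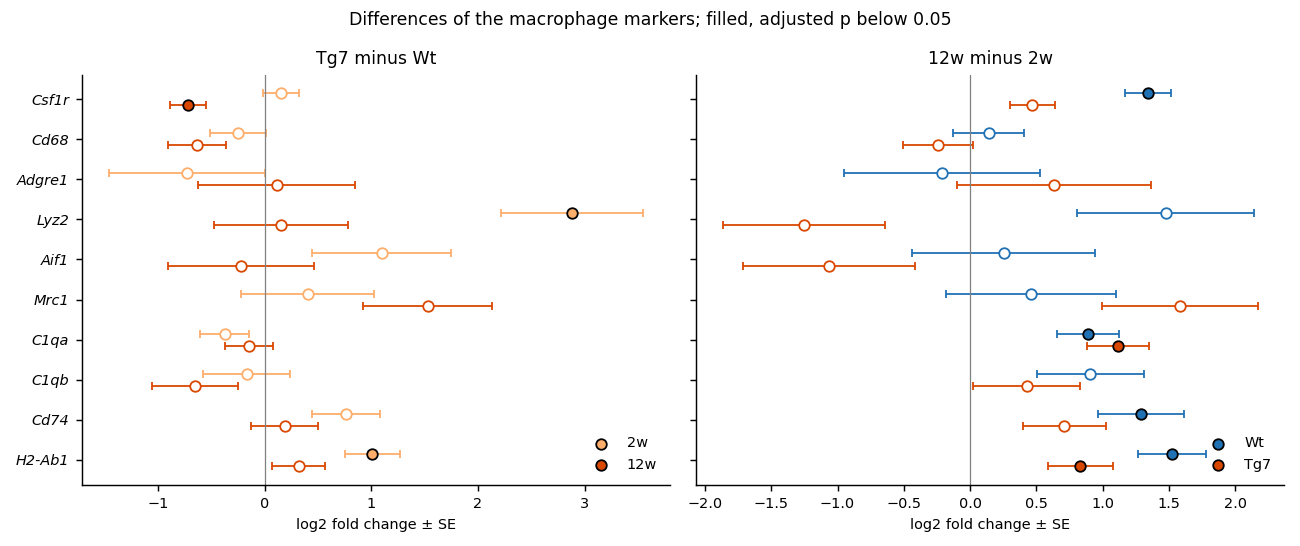
Log2 fold change ± SE of each macrophage marker, for Tg7 minus Wt at 2w and 12w (left) and for 12w minus 2w in Wt and in Tg7 (right), with filled points for an adjusted p below 0.05. Lyz2 and H2-Ab1 rose at 2w, Csf1r fell at 12w, and Csf1r, C1qa, Cd74 and H2-Ab1 rose with age in Wt islets.

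Csf1r encodes the receptor that macrophages need for survival (chr18:61265226-61291803, plus strand, NCBIM37). Wt islets held 9.43, 8.84 and 9.90 CPM at 2w and Tg7 islets 11.2, 10.4 and 9.74 CPM. At 12w the Wt libraries held 26.8, 26.4 and 18.5 CPM and the Tg7 libraries 15.7, 14.3 and 13.4 CPM. The genotypes overlapped at 2w, and at 12w every Tg7 library was below every Wt library.

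The 12w difference of Csf1r was -0.72 ± 0.17 (SE, adjusted p = 0.00707), with group means of 23.9 ± 4.66 CPM in Wt and 14.5 ± 1.13 CPM in Tg7 (SD, n = 3). It was called with each of the 12 libraries left out in turn, between -0.87 and -0.64. With library size alone it was -0.26 and the adjusted p was 0.237. The 2w difference was 0.15 ± 0.17, and the difference between the ages' effects, -0.87 ± 0.24, had an adjusted p of 0.106.

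Csf1r shares 871 exonic bases with Hmgxb3, which runs on the opposite strand, and whether counting used the strand is not stated in the labels or methods. Hmgxb3 stood at 36.7, 47.1 and 54.0 CPM in Wt and 31.7, 34.6 and 29.3 CPM in Tg7 at 12w, and it fell as well, by 0.53 on the log2 scale (adjusted p = 0.0169). Within the Wt 12w libraries Hmgxb3 was highest where Csf1r was lowest. With age in Wt, where Csf1r rose by 1.34, Hmgxb3 changed by -0.04 ± 0.14 (adjusted p = 0.866). Its part in the counts of Csf1r was not tested.

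The ligands of the receptor went the other way at 12w. Csf1, the main growth factor of macrophages, stood at 12.98, 14.7 and 17.5 CPM in Wt and 34.5, 35.6 and 33.7 CPM in Tg7 islets. Every Tg7 library was above every Wt library, and Csf1 rose by 1.19 ± 0.30 (adjusted p = 0.0120). At 2w it stood at 26.6, 30.4 and 26.9 CPM in Wt and 62.7, 23.3 and 23.8 CPM in Tg7, where only the first Tg7 library was above the Wt range.

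Il34, the second CSF1R ligand, stood at 2.02, 1.91 and 1.13 CPM in Wt and 4.68, 4.70 and 4.46 CPM in Tg7 islets at 12w. The groups did not overlap, and it rose by 1.47 ± 0.29 (adjusted p = 0.0023). At 2w Wt libraries held 5.34, 4.71 and 3.88 CPM and Tg7 libraries 4.70, 5.65 and 5.66 CPM. Il34 fell with age in Wt by 1.48 (adjusted p = 0.0035) and changed by -0.21 ± 0.26 with age in Tg7 islets, where the ages overlapped.

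The change of the Tg7 effect between the ages had an adjusted p of 0.146 for Il34 and 0.411 for Csf1. Without the first Tg7 library at 2w, that change was 1.46 for Csf1, with an adjusted p of 0.00446. Per kilobase, Csf1 was 2.70 to 3.42 times Csf1r in Wt islets at 2w and 0.481 to 0.940 times at 12w, whereas in Tg7 islets at 12w it was 2.18 to 2.49 times.

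**Figure D3:**
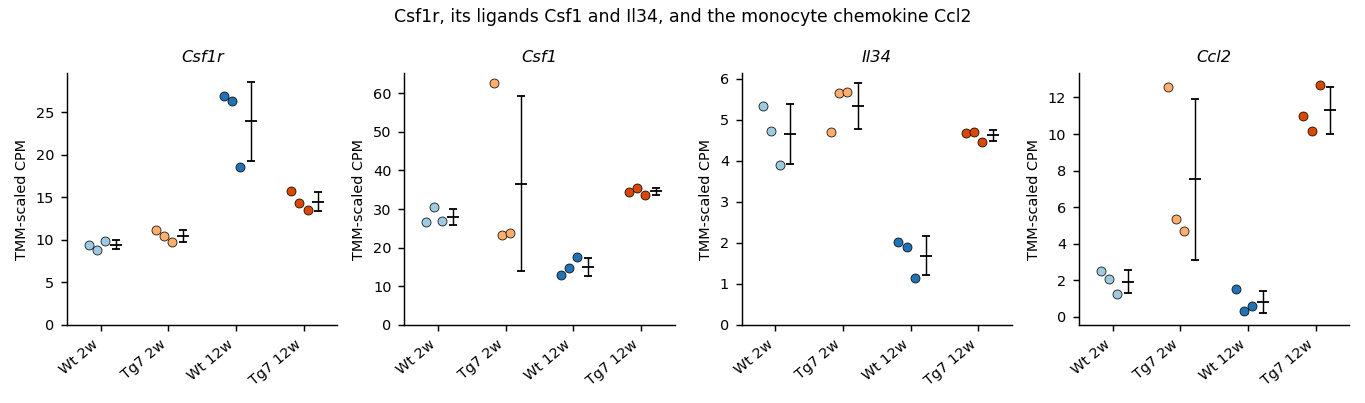
TMM-scaled CPM of Csf1r, its ligands Csf1 and Il34, and the monocyte chemokine Ccl2 in the 12 libraries, as points, with the mean and SD of each group. At 12w Csf1r was lower in Tg7 islets, while Csf1, Il34 and Ccl2 were higher without overlap.

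Of 17 tested genes of the CSF1 axis and myeloid transcription factors, 2 rose at 2w, Cebpa (1.20 ± 0.30) and Maf (1.18 ± 0.35), and 2 rose at 12w, the ligands above. Over all tested genes 6.07% were called higher at 2w and 12.5% at 12w. The call on Cebpa was lost without any one of the Wt libraries at 2w or without the second or the third Tg7 library (adjusted p = 0.0534 to 0.0859). That on Maf was lost without any one of the Wt libraries at 2w, the second Wt library at 12w or the first or the second Tg7 library at 12w (adjusted p = 0.0543 to 0.161), and without the third Tg7 library at 2w, at 0.64 (adjusted p = 0.259). The list's median difference was 0.39 at 2w and 0.07 at 12w. Spi1 stood at 0.712, 0.442 and 0.638 CPM in Wt and 5.44, 1.36 and 0.447 CPM in Tg7 islets at 2w. It was high in the first Tg7 library, the groups overlapped, and the adjusted p was 0.0953 (0.56 and 0.637 without that library). At 12w Spi1 stood at 0.397 to 1.26 CPM in Wt and 1.03 to 1.22 CPM in Tg7.

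PU.1 binds DNA at ETS-type motifs, and the 250 bases before the start of each gene were searched for AGGAAGT or, on the other strand, ACTTCCT, a motif chosen after the sequences were seen. RefSeq promoters (GRCm38.p6, a later build than that of the counts) were at hand for 5 markers, Cd68, Lyz2, Aif1, Mrc1 and C1qb. The motif was present in Lyz2, Mrc1 and C1qb, and 7.69% of all 32851 promoters held it. Because it was chosen with the sequences in view, the share over all promoters is no test of these matches. The windows below, each of 28 bases on the gene's strand with the motif in capitals, are shown because they belong to the markers with a match and to the related genes Lyz1 and C1qc. The first base of the motif lay 100 bases before the start in Lyz2 and in Lyz1, 211 in Mrc1, 53 in C1qb and 195 in C1qc. A match describes letters and not binding.
Lyz2 (chr10:117282355-117282382, minus strand): atcggtaggaACTTCCTgttttgcacac
Lyz1 (chr10:117292951-117292978, minus strand): atctgtaggaACTTCCTgctttacgcac
Mrc1 (chr2:14229193-14229220, plus strand): acttctccccACTTCCTgcgttttctcc
C1qb (chr4:136886236-136886263, minus strand): aggacctgaaACTTCCTgagggcagcag
C1qc (chr4:136893092-136893119, minus strand): gacggcagacACTTCCTcattttggcac

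Cd68 encodes a lysosomal glycoprotein of phagocytes (chr11:69477715-69479655, minus strand). Its level was 8.13, 7.88 and 6.49 CPM in Wt and 6.30, 7.66 and 4.97 CPM in Tg7 islets at 2w. At 12w it was 11.1, 8.41 and 5.53 CPM in Wt and 4.74, 6.09 and 5.15 CPM in Tg7. The groups overlapped at both ages, with differences of -0.25 ± 0.26 and -0.63 ± 0.27 (adjusted p = 0.591 and 0.106).

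Without the fourth Wt library at 12w, which held the lowest Wt level, Cd68 was called, at -0.86 with an adjusted p of 0.0232. The abundant gene Eif4a1 lies 782 bases from Cd68 on the same strand. Eif4a1 also fell at 12w, by 0.34 (adjusted p = 0.0295), and its part in the counts of Cd68 was not tested.

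Adgre1 encodes the surface marker F4/80 (chr17:57498109-57622952, plus strand). It stood at 1.72, 1.99 and 1.33 CPM in Wt and 0.480, 1.62 and 0.944 CPM in Tg7 at 2w. At 12w it stood at 2.02, 0.159 and 2.20 CPM in Wt and 0.620, 1.22 and 2.86 CPM in Tg7. The libraries of each group spread more widely than the groups differed, and the Wt value of 0.159 CPM rested on 2 counts. The differences were -0.73 ± 0.73 at 2w and 0.11 ± 0.74 at 12w.

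Aif1 encodes IBA1, a calcium-binding protein of macrophages and microglia (chr17:35307936-35313013, minus strand). Its level was 0.890, 0.442 and 0.692 CPM in Wt and 1.76, 0.455 and 2.14 CPM in Tg7 at 2w. At 12w it was 0.756, 0.238 and 1.40 CPM in Wt and 0.959, 0.498 and 0.629 CPM in Tg7. Groups overlapped at both ages, with differences of 1.10 ± 0.65 and -0.22 ± 0.69.

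Lyz2 encodes lysozyme M, an antibacterial enzyme of macrophages, monocytes and neutrophils (chr10:116714390-116719377, minus strand). At 2w it stood at 3.38, 6.41 and 1.86 CPM in Wt and 62.9, 8.25 and 13.2 CPM in Tg7. All 3 Tg7 libraries were above the Wt range, and the first was several-fold above the other two. Lyz2 rose by 2.88 ± 0.67 (adjusted p = 0.0140).

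Without the first Tg7 library the 2w difference of Lyz2 was 1.49 ± 0.46 and the adjusted p was 0.0538. The call was also lost without the first Wt library (2.80, adjusted p = 0.0671) and without the third one (2.53, adjusted p = 0.0806). At 12w Lyz2 stood at 14.6, 5.48 and 12.1 CPM in Wt and 10.54, 10.2 and 14.6 CPM in Tg7, with overlap and a difference of 0.15 ± 0.63. Its near-identical paralog Lyz1, to which reads could be misassigned, was listed at 0 to 0.374 CPM.

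Mrc1 encodes the mannose receptor CD206, a marker of tissue-resident macrophages (chr2:14151041-14253684, plus strand). At 2w it stood at 0.712, 0.147 and 0.745 CPM in Wt and 0.747, 1.17 and 0.298 CPM in Tg7. At 12w it stood at 0.378, 0.953 and 0.867 CPM in Wt and 1.75, 2.55 and 2.29 CPM in Tg7. Every Tg7 library was above every Wt library at 12w, from 31, 46 and 40 counts against 3, 12 and 13, and the difference of 1.53 ± 0.60 had an adjusted p of 0.0833. With library size alone it was 1.94, with an adjusted p of 0.0235.

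C1qa encodes the A chain of C1q, which starts the classical complement cascade (chr4:136451832-136454718, minus strand). It stood at 24.4, 20.3 and 17.0 CPM in Wt and 11.6, 20.9 and 15.1 CPM in Tg7 at 2w. At 12w it stood at 26.3, 45.7 and 41.7 CPM in Wt and 37.6, 34.03 and 31.5 CPM in Tg7. Genotypes overlapped at both ages, with differences of -0.38 ± 0.23 and -0.15 ± 0.23 (adjusted p = 0.328 and 0.701).

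C1qb encodes the B chain (chr4:136436044-136442102, minus strand). Its level was 7.001, 2.95 and 4.203 CPM in Wt and 3.95, 5.91 and 2.83 CPM in Tg7 at 2w. At 12w it was 14.2, 5.16 and 7.60 CPM in Wt and 6.43, 6.20 and 4.35 CPM in Tg7. The groups overlapped, with differences of -0.17 ± 0.41 and -0.65 ± 0.40 (adjusted p = 0.834 and 0.273).

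The C chain gene C1qc, not among the markers, stood at 1.98 to 7.81 CPM over all libraries, with differences of 0.15 ± 0.44 at 2w and 0.24 ± 0.45 at 12w. The C1q protein is assembled from equal numbers of A, B and C chains. Per kilobase, C1qa was 1.93 to 9.27 times C1qb and 5.59 to 42.8 times C1qc in single libraries, and the ratio varied most among the Wt 12w libraries. In the second Wt library at 12w, C1qa was at its highest of all libraries while C1qc was at its lowest.

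**Figure D4:**
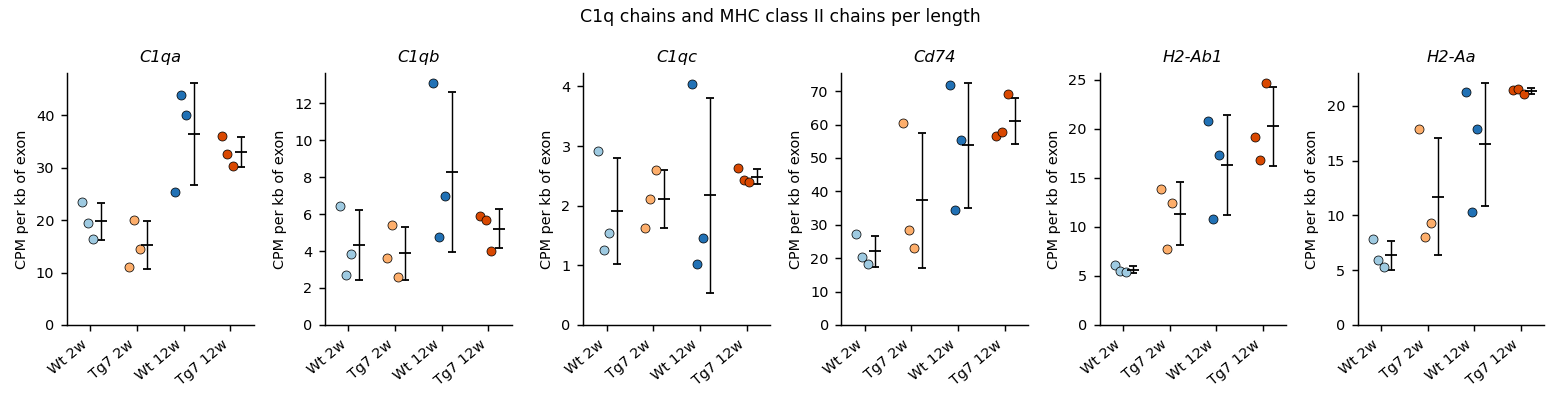
Levels per kilobase of exon (TMM-scaled CPM per kb) of the 3 C1q chain genes and of Cd74, H2-Ab1 and H2-Aa in the 12 libraries, as points, with the mean and SD of each group. C1qa exceeded C1qb and C1qc in every library, whereas H2-Ab1 and H2-Aa lay within 0.776 to 1.35 times of each other.

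Of 16 tested complement genes beside the markers, 8 were called at 2w and 8 at 12w, all higher in Tg7. This compares with 6.07% and 12.5% of all tested genes called higher, and the list medians were 1.22 and 0.96. At 2w the 3 with the largest rise were C3 (3.29 ± 0.69), the hub of the cascade, C4b (3.001 ± 0.53) and the inhibitor Cd55 (2.30 ± 0.39). At 12w they were C4b (2.60 ± 0.53), the protease C1ra (2.42 ± 0.42) and Cfb (2.05 ± 0.71), which was called at an adjusted p of 0.0497. The count at 2w was the same without the first Tg7 library, where C3 rose by 1.64 and C4b by 1.99. The call on C3 was lost without the third Wt library (adjusted p = 0.0505), and that on Cfb in all 12 fits with a library left out (adjusted p = 0.0536 to 0.165). Many of these genes are also made by fibroblasts and epithelial cells.

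Cd74 encodes the invariant chain that escorts MHC class II molecules (chr18:60963502-60972300, plus strand). At 2w it stood at 38.5, 28.7 and 25.9 CPM in Wt and 85.2, 40.01 and 32.5 CPM in Tg7. At 12w it stood at 101, 48.4 and 78.3 CPM in Wt and 80.0, 81.3 and 97.3 CPM in Tg7. The groups overlapped at both ages, with differences of 0.76 ± 0.32 and 0.19 ± 0.32 (adjusted p = 0.144 and 0.725). Without the first Tg7 library the 2w difference was 0.23 ± 0.25.

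H2-Ab1 encodes the β chain of the class II molecule I-A (chr17:34400154-34406363, plus strand). At 2w it stood at 10.0, 8.99 and 8.83 CPM in Wt and 22.8, 12.7 and 20.5 CPM in Tg7. All 3 Tg7 libraries were above the Wt range, and it rose by 1.01 ± 0.26 (adjusted p = 0.0232). At 12w it stood at 34.3, 17.7 and 28.5 CPM in Wt and 31.5, 27.7 and 40.6 CPM in Tg7, with overlap and a difference of 0.32 ± 0.25. In the Tg7 libraries at 2w the B lymphocyte list summed to 93.5, 40.1 and 93.0 CPM. The dendritic cell list summed to 236, 155 and 147 CPM there. Which cells the RNA of these lists came from, and the part of B lymphocytes and dendritic cells in the level of H2-Ab1, were not tested.

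The 2w call on H2-Ab1 was lost without any of the 3 Wt libraries, without the first Tg7 library and without the third, at differences of 0.85 to 1.06 and adjusted p values of 0.0631 to 0.0980. Its partner chain H2-Aa stood at 15.6, 11.9 and 10.48 CPM in Wt and 35.5, 15.9 and 18.4 CPM in Tg7 at 2w, again without overlap. The difference of H2-Aa was 0.88 ± 0.30 with an adjusted p of 0.0718, and 0.45 without the first Tg7 library. The genes share 17 exonic bases on opposite strands.

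Over all tested genes 6.07% were called higher at 2w and 12.5% at 12w. Of 15 tested genes of MHC class II presentation beside the markers, 5 were called at 2w, all higher in Tg7, and 2 at 12w, both higher. At 2w these were led by Ciita (3.90 ± 1.05), the master regulator of class II genes, H2-DMb1 (2.53 ± 0.67) and H2-Eb1 (1.06 ± 0.28). Ciita overlapped between the groups and owed its size to the first Tg7 library, at 5.71 CPM against 0.130 and 0.894 CPM in the others. Without that library 3 genes of the list were called, and Ciita (1.83, adjusted p = 0.209) and H2-Eb1 (0.71, adjusted p = 0.107) were not. The calls on Ciita, H2-DMb1 and H2-Eb1 were each lost without any one of the Wt libraries at 2w, and those on H2-DMb1 (1.96, adjusted p = 0.127) and H2-Eb1 (1.11, adjusted p = 0.0536) also without the third Tg7 library. At 12w H2-DMa (1.41 ± 0.24), which helps load peptide, and the protease Ctsl (0.44 ± 0.13) rose, the latter not without the first or the second Wt library or any one of the Tg7 libraries (adjusted p = 0.0564 to 0.0899). The median difference of the list reached 0.79 (2w) and 0.42 (12w).

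For the change of the Tg7 effect from 2w to 12w, edgeR's quasi-likelihood test called 0 of 10 markers, against 1.18% of all genes (0.871% upward and 0.307% downward). The markers' median change was -0.53, against -0.03 for all genes, and it was -0.25 without the first Wt library at 12w. At an unadjusted p below 0.05 there were 2 of 10, Csf1r and Lyz2, against 14.5% of all genes. DESeq2 on all libraries called Csf1r (-0.88, adjusted p = 0.0373).

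With age, the markers mostly stood higher at 12w. In Wt islets 4 of 10 rose, where 15.8% of all genes were called (7.90% higher and 7.91% lower). The fitted difference was above 0 for 9 of 10, and the groups did not overlap for 4, all higher, against 31.4% of all genes (15.7% higher and 15.6% lower). In Tg7 islets 2 of 10 rose, where 7.02% of all genes were called higher and 6.01% lower. The groups did not overlap for 4, all higher, against 40.7% of all genes (21.5% higher and 19.2% lower). The markers' median difference was 0.90 in Wt and 0.55 in Tg7, where that of all genes was 0.04 and -0.01. Each comparison with age shares its libraries with the comparisons of genotype above.

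Csf1r rose with age in Wt by 1.34 ± 0.17 (adjusted p = 0.000175), in every fit with a library left out. In Tg7 islets the difference was 0.47 ± 0.17 (adjusted p = 0.0844), and it was called without the fourth Wt library at 12w (adjusted p = 0.0247). All 12w libraries of each genotype were above all its 2w libraries.

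H2-Ab1 rose in Wt by 1.52 ± 0.26 (adjusted p = 0.00147) and in Tg7 by 0.83 ± 0.25 (adjusted p = 0.0403), without overlap in either. The Tg7 call was lost in 8 of the 12 fits with a library left out. C1qa rose in Wt by 0.89 ± 0.23 (adjusted p = 0.0190) and in Tg7 by 1.12 ± 0.23 (adjusted p = 0.00608), and the groups were apart in both genotypes. Its Wt call was lost without the second or the third Wt library at 2w or the second at 12w, at adjusted p values of 0.0644 to 0.0994.

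Cd74 rose in Wt by 1.29 ± 0.32 (adjusted p = 0.0158), a call lost without the second or the third Wt library at 2w or the first at 12w. In Tg7 its difference was 0.71 ± 0.32, and 1.24 (adjusted p = 0.0101) without the first Tg7 library at 2w. Lyz2 differed by 1.48 ± 0.67 in Wt and by -1.25 ± 0.61 in Tg7, and neither passed. Without the first Tg7 library at 2w, Lyz2 was called in Wt (1.45, adjusted p = 0.0366).

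Mrc1 differed by 0.46 ± 0.64 in Wt and 1.58 ± 0.59 in Tg7 (adjusted p = 0.665 and 0.0949), and in Tg7 every 12w library was above every 2w library. The remaining markers, Cd68, Adgre1, Aif1 and C1qb, overlapped between the ages in both genotypes, with differences from -1.07 (Aif1 in Tg7) to 0.91 (C1qb in Wt). With library size alone, 2 markers were called in Wt, Csf1r and H2-Ab1, and 1 in Tg7, C1qa.

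Among 42 tested other macrophage genes, 3 rose and 1 fell at each age, where 10.6% and 23.6% of all genes were called. The list medians were 0.64 and 0.25. At 2w these included Fcgr2b (1.16 ± 0.34), an inhibitory Fc receptor, and Sirpa (-1.03 ± 0.13), a receptor for the signal CD47. At 12w the largest were Slc11a1 (1.65 ± 0.31), a metal transporter of phagosomes, the galectin Lgals3 (0.83 ± 0.26) and again Sirpa (-0.72 ± 0.13). The call on Fcgr2b was lost without any one of the Wt libraries at 2w, the second or the third Tg7 library at 2w or any one of the Tg7 libraries at 12w (adjusted p = 0.0549 to 0.175). That on Lgals3 was lost without the second or the fourth Wt library or any one of the Tg7 libraries at 12w (adjusted p = 0.0519 to 0.114), and that on Sirpa at 12w with library size alone (-0.28, adjusted p = 0.190). Sirpa is also expressed outside the macrophage lineage.

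Of the 22 genes of tissue-resident and alternatively activated macrophages, 8 passed the filter, to be set beside the 10.6% (2w) and 23.6% (12w) of all tested genes called. At 2w 2 rose and 1 fell, namely Igf1 (1.57 ± 0.46), Sepp1 (0.68 ± 0.14) and Lyve1 (-1.40 ± 0.37). At 12w 3 rose and 2 fell, the largest being F13a1 (-3.002 ± 0.85), Lyve1 (-1.47 ± 0.39) and Il4ra (1.30 ± 0.22). At 2w the calls on Igf1 and Lyve1 were each lost without any one of the Wt libraries or the second or the third Tg7 library, and that on Igf1 also without any one of the Tg7 libraries at 12w (adjusted p = 0.0601 to 0.176 for Igf1 and 0.0679 to 0.102 for Lyve1). The call on Sepp1 was lost without the third Wt library (adjusted p = 0.0501), and without the first Tg7 library Lyve1 fell by 2.10. At 12w that on F13a1 was lost without the fourth Wt library or the first or the second Tg7 library (adjusted p = 0.0780 to 0.0926), and that on Lyve1 without the first Wt library (adjusted p = 0.0587) or the third Tg7 library (adjusted p = 0.0672). Lyve1 is also a marker of lymphatic endothelium.

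For inflammatory genes and chemokines too, the share of all tested genes called was 10.6% at 2w and 23.6% at 12w. Of 10 tested inflammatory genes, Il6 (1.58 ± 0.48) rose and Il1b (-1.96 ± 0.43) fell at 2w, and Il6 (2.70 ± 0.49) and Socs3 (1.24 ± 0.34) rose at 12w. Il6 at 2w was called in 3 of the 12 fits with a library left out, those without the second Tg7 library at 2w or the first or the fourth Wt library at 12w, and stood at 1.14 (adjusted p = 0.163) without the first Tg7 library. Socs3 was not called without the first Tg7 library at 12w (1.06, adjusted p = 0.0719). Of 11 tested chemokines that act on monocytes, Ccl2, the main attractant of monocytes, rose at both ages. It stood at 2.49, 2.06 and 1.22 CPM in Wt and 12.6, 5.33 and 4.67 CPM in Tg7 at 2w, and at 1.51, 0.318 and 0.600 CPM in Wt and 11, 10.2 and 12.7 CPM in Tg7 at 12w. The groups were apart at each age, with differences of 1.97 ± 0.45 (adjusted p = 0.0128) and 3.92 ± 0.52 (adjusted p = 0.000133). Without the third Wt library the 2w call on Ccl2 was lost (1.72, adjusted p = 0.0781). Cx3cl1 (0.68 ± 0.17) also rose and Mif (-0.85 ± 0.24) fell at 12w, the former not without the third Tg7 library (adjusted p = 0.0588) and the latter not without the first or the second Wt library or any one of the Tg7 libraries (adjusted p = 0.0503 to 0.0872).

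Gene lists of other cell types were measured beside the markers, and which cells the RNA of each list came from was not tested. The summed level of the dendritic cell list was 123 to 147 CPM in Wt and 147 to 236 CPM in Tg7 islets at 2w, that of the T and NK list 13.4 to 19.2 and 23.3 to 59.4 CPM, and that of the B lymphocyte list 17.1 to 28.1 and 40.1 to 93.5 CPM. At 12w the same lists summed to 120 to 184 and 117 to 157 CPM, 6.73 to 8.19 and 15.4 to 18.8 CPM, and 34.9 to 60.2 and 28.2 to 46.7 CPM. The summed macrophage markers themselves were 76.9 to 104 CPM in Wt and 102 to 207 CPM in Tg7 at 2w, and 159 to 232 and 184 to 213 CPM at 12w.

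At 2w the calls were Ccr7 of 8 tested dendritic genes, Faim3, Igkc and Ighm of 6 B lymphocyte genes, and Thy1 of 4 T and NK genes, which fibroblasts express too. All were higher in Tg7, where 6.07% of all tested genes were called higher. At 12w Faim3 (4.23) and Thy1 (2.22) of these lists rose, where 12.5% of all tested genes were called higher. Without the first Tg7 library Ccr7 and Thy1 were no longer called and 2 B lymphocyte genes were. The monocyte and neutrophil list summed to no more than 11.5 CPM in any library, with Ly6g, Retnlg, Elane and Ngp without a count. Of 8 mast cell genes 2 passed the filter on low counts, Kit and Hdc, and both rose at both ages. Of all tested genes 6.07% and 12.5% were called higher at 2w and 12w. Mcpt4, Cma1, Tpsb2 and Fcer1a had no count, and which cells the RNA of Kit and Hdc came from was not tested.

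At 12w, 10 of 12 endothelial genes rose in Tg7, led by Cldn5, Plvap and Pecam1, and 11 of 12 stellate and fibroblast genes, led by Col1a1, Lum and Pdpn. Of all tested genes 12.5% were called higher at that age. At 2w 8 of the 12 stellate and fibroblast genes rose, against 6.07% of all tested genes, led by Pdgfra, Pdpn and Lum. Without the first Tg7 library 3 of the 12 were called. Without it Pdgfra (1.31, adjusted p = 0.124), Pdpn (0.94, adjusted p = 0.325) and Lum (1.004, adjusted p = 0.0801) were not called. The call on Cldn5 at 12w was lost in 8 of the 12 fits with a library left out. The endothelial list summed to 431 to 565 CPM in Wt and 880 to 939 CPM in Tg7 at 12w, and the stellate and fibroblast list to 90.5 to 153 and 402 to 430 CPM. Hbb-b1 and Hbb-b2 of 6 erythroid genes rose at 12w. The acinar list summed to 17.8 to 19.4 CPM in Wt and 25.7 to 31.4 CPM in Tg7 islets at 2w, and to 20.9 to 27.1 and 16.3 to 18.8 CPM at 12w, without overlap at either age. The part of these cell types in the macrophage results was not tested.

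**Figure D5:**
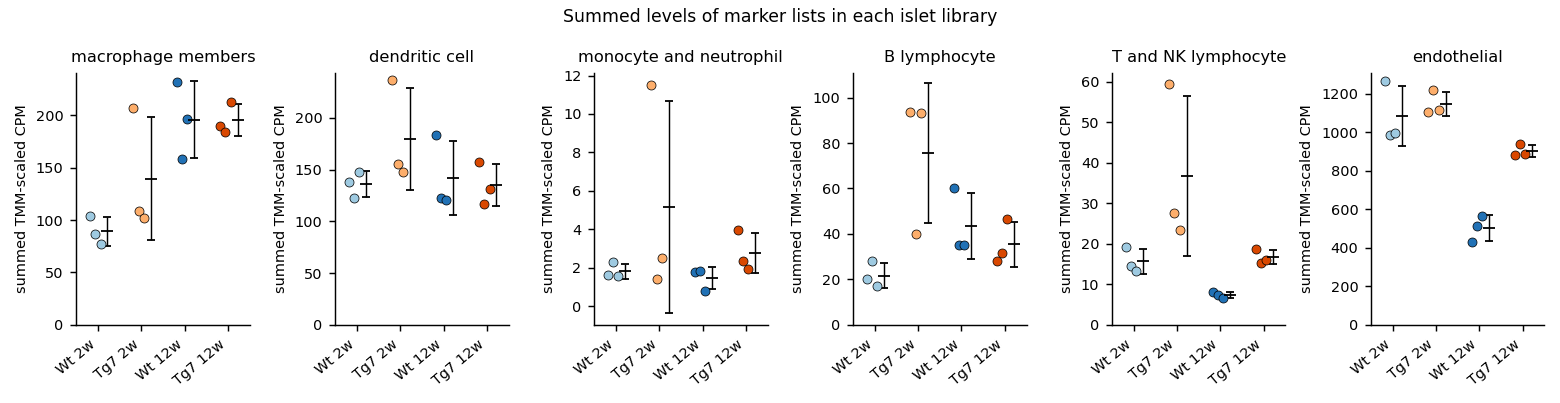
Summed TMM-scaled CPM of marker lists in the 12 libraries, as points, with the mean and SD of each group. The first Tg7 library at 2w was highest in the dendritic, monocyte and neutrophil, B lymphocyte and T and NK lists, and the endothelial sums were higher in Tg7 than in Wt only at 12w without overlap.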

How the data were processed

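Islet RNA of 2w and 12w Tg7 and Wt mice (pools of several animals, 3 libraries per group; Wt 12w libraries are numbered 1, 2 and 4) was sequenced as paired-end reads. The authors trimmed reads with Trimmomatic, aligned them to mm9 (NCBIM37) with TopHat2 2.0.11 and deposited raw counts per Ensembl gene from featureCounts. The submitters' processing notes name bcl2fastq 2.20.0, and none of these sources states the strand setting. Of 37991 genes, filterByExpr (minimum count 10, minimum total 15) kept 15961. Counts were scaled by TMM and fitted in edgeR 4.0.16 (glmQLFit, glmQLFTest) as 4 group means, with p values adjusted by Benjamini-Hochberg across the tested genes, a threshold of 0.05 and no block; the study used DESeq2, here an alternative (1.42.0). SEs were derived from each log2 fold change and its F statistic (absolute change over root F). R was 4.3.3 and Python 3.11.15.

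The markers and lists were chosen with earlier results of these data known. All 10 markers are named, with Csf1, Il34, Spi1, Lyz1, C1qc and H2-Aa, and up to 3 called genes with the largest change from each other list whose count is given. Some genes that this rule or the likeness to the markers' mean would name are not reported here. Libraries of a group differed beyond sampling noise (chi-square per degree of freedom 7.23 to 191 between pairs), so none was a repeat. Alternatives were DESeq2, other scalings and filters, the compared groups alone, a replicate block and each library left out. The fit was tested on simulated data.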

Additional observations from a re-analysis of the deposited data

Results flagged for a closer look

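In a test of the difference itself (12w minus 2w, edgeR's quasi-likelihood test), the Tg7 effect differed between the ages for some listed genes. These were 1 of 42 tested other macrophage genes, 1 of 12 endothelial genes and 4 of 12 stellate and fibroblast genes, all upward. None was a marker, and of all tested genes 1.18% were called, 0.871% upward. Up to 3 of each list, those with the largest difference, are given here. Slc11a1, a transporter of phagocytes, differed by 1.88 ± 0.42 (adjusted p = 0.0496), with a Tg7 effect of -0.23 at 2w and 1.65 at 12w. Its call held in 2 of the 12 fits with a library left out, where the difference lay between 1.77 and 2.01. In the endothelial list Pecam1 differed by 0.91 ± 0.20 (adjusted p = 0.0496), a call kept in 1 of the 12 fits. In the stellate and fibroblast list Col1a1 differed by 2.85 ± 0.31, Col3a1 by 2.63 ± 0.29 and Pdgfrb by 1.60 ± 0.21, and all 3 calls were kept in each of the 12 fits.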

How the results depend on the processing

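With library size alone 2 markers were called at 12w (both higher, against 1 lower in the reported fit), 2 with age in Wt and 1 with age in Tg7. For the difference between the ages' effects, DESeq2 called 1 (Csf1r) and the fit with no filter 1 (Lyz2). With each library left out in turn, 0 to 2 markers were called at 2w, 1 to 2 at 12w, 0 to 1 for the difference, 2 to 5 with age in Wt and 1 to 3 with age in Tg7. Of 925 single marker values under the alternatives, none changed sign where it or the reported value was called. Uncalled values did change sign, such as Lyz2 with age in Tg7, which turned positive (0.13) without the first Tg7 library at 2w. The difference with age in Tg7 turned from -0.08 to 0.55 for Csf1 and from -2.40 to 4.06 for Ccr7 without the first Tg7 library at 2w, with ranges over left-out libraries of -0.32 to 0.55 and -2.98 to 4.06. The replicate block called 2 markers at 2w, 1 at 12w and 0 for the difference, as without it. At 12w the fourth Wt and the third Tg7 library had no partner by number, and each was fitted by its own block term. The 12w results with the block therefore rested on the first and second libraries of each genotype. Library numbers did not pair the samples (correlations of -0.167 to -0.0112). Among other named genes the block ended many calls. At 12w these included Il34 (1.26, adjusted p = 0.0669), Slc11a1, Lgals3, Lyve1, F13a1, Socs3, Cx3cl1, Cfb, Cldn5, Hbb-b2, Faim3 and Pdpn (adjusted p = 0.0528 to 0.339). At 2w they included Fcgr2b (0.0779), Igf1 (0.0733), H2-DMb1 (0.0558), Ciita (0.113), Pdgfra (0.101), Pdpn (0.153) and Lum (0.0520). The share of upward calls over all genes at 12w was 52.7%, against 93.5% with library size alone and 64.7% with upper-quartile factors. Genes called at 12w numbered 3772 against 2211 with the block, and for the difference 188 against 561 with DESeq2. At 2w 1695 genes were called against 3005 with DESeq2 on that age alone, and with age 2524 in Wt against 1283 and 2079 in Tg7 against 3441 in the compared groups alone (4120 in Wt with library size alone). For the difference, 347 were called with library size alone, 420 with no filter and 108 with the block. The share of upward calls with library size alone was 84.0% at 2w (57.2% with TMM), 93.1% for the difference (73.9%), 7.89% with age in Wt (49.96%) and 37.8% with age in Tg7 (53.9%). The cause was not tested.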
